A study of Mus with 6 samples.

Results

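Genes of the neutrophil program were examined in mouse pancreatic tumors grown in obese and in lean hosts. The set was a list of 9 genes given by name, with no threshold on their values: the growth factor Csf3, the receptors Csf3r and Cxcr2, the alarmins S100a8 and S100a9, the lipocalin Lcn2, and Mpo, Retnlg and Ly6g. Of the 9 gene IDs, 6 had a row among the 15646 genes of the count table, and all 6 passed the filter on low counts: Csf3 (ENSMUSG00000038067.2), Csf3r (ENSMUSG00000028859.14), Cxcr2 (ENSMUSG00000026180.8), S100a8 (ENSMUSG00000056054.9), S100a9 (ENSMUSG00000056071.12) and Lcn2 (ENSMUSG00000026822.14). Mpo, Retnlg and Ly6g had no row in the count table and were not analysed here. Of the markers taken to define neutrophils, Ly6g was thus not at hand. No ID in the table sums to under 11 counts, so genes with few or no reads may have been left out before deposit. The 3 genes without a row may therefore have been scarce in both groups, which cannot be checked here. Csf3r (40 to 88 counts) and Cxcr2 (9 to 31 counts) were at hand and were detected in every library.

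Total RNA was sequenced from tumors of KPC1199 cells, a mouse pancreatic ductal adenocarcinoma line, implanted orthotopically, that is, into the pancreas. The hosts were genetically obese ob/ob mice, which lack functional leptin, or lean wild-type mice, with 3 tumor libraries in each group (obese 1, 3 and 4, and lean 1, 2 and 3, by the numbers in their titles). Every tumor came from the same cell line, and obesity and the loss of leptin cannot be told apart in this design. The labels used here state neither age, sex nor strain background. They also do not say that each library came from its own mouse, so a p-value here reflects the spread between samples, some of which may be technical.

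Neutrophils are short-lived phagocytes made in the bone marrow. Granulocyte colony-stimulating factor (G-CSF, the product of Csf3) drives their production through its receptor Csf3r, and Cxcr2 guides them out of the marrow and into tissue along CXC chemokines. S100a8 and S100a9 together form calprotectin, a calcium- and metal-binding complex that fills the neutrophil cytosol, and Lcn2 (neutrophil gelatinase-associated lipocalin) is stored in granules and withholds iron from bacteria by binding their siderophores. In pancreatic cancer, neutrophils are a regular part of the myeloid infiltrate. The list is not equally selective: Csf3 is secreted by tumor, stromal and endothelial cells, Lcn2 is also made by epithelial cells, and S100a8 and S100a9 are also expressed by monocytes.

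In GRCm38 coordinates of the RefSeq gene table, S100a8 (chromosome 3, 90669071 to 90670034) and S100a9 (chromosome 3, 90692630 to 90695721) are neighbors, 22595 bases apart. Csf3r lies on chromosome 4 (126023441 to 126044975), Cxcr2 on chromosome 1 (74153994 to 74161246) next to Cxcr1, Csf3 on chromosome 11 (98700183 to 98703631) and Lcn2 on chromosome 2 (32384637 to 32387739). Csf3r overlaps 1 other annotated gene, Gm32908, and Csf3 overlaps 1, Gm38985, so reads in those stretches could belong to either gene, as strand handling is not stated. The other 4 overlap none.

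Lcn2 was lower in tumors of obese hosts, and it was the single gene of the 6 that passed the test. The receptors Csf3r and Cxcr2, the ligand Csf3 and the alarmin S100a9 had fitted values above those of lean tumors without passing, and S100a8 had a fitted difference close to 0. Called genes are those with an adjusted p under 0.05 over the 14348 genes tested (edgeR quasi-likelihood test). By that rule 0 of the 6 were higher and 1 was lower, against 20.8% of all genes tested called in either direction, 10.3% higher and 10.6% lower. When 1 library was left out, Lcn2 was still the 1 gene of the 6 called, while the share of all genes called was 7.99% (lean 2 left out), 9.92% (obese 1), 10.4% (lean 3), 13.2% (obese 4), 17.8% (lean 1) and 20.8% (obese 3). The same held for the other scalings, filters and tools, under which 18.6%, 20.3%, 20.7%, 20.8%, 21.0% and 21.6% of all genes were called, and for the block on library number, with 14.5%. At an unadjusted p under 0.05 the count was also 1 of 6, against 36.2% of all genes. Positive log2 fold changes were fitted for 4 of the 6 and for 50.9% of all genes. The median log2 fold change was 0.56 over the 6 genes and 0.01 over all genes tested.

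**Figure D1:**
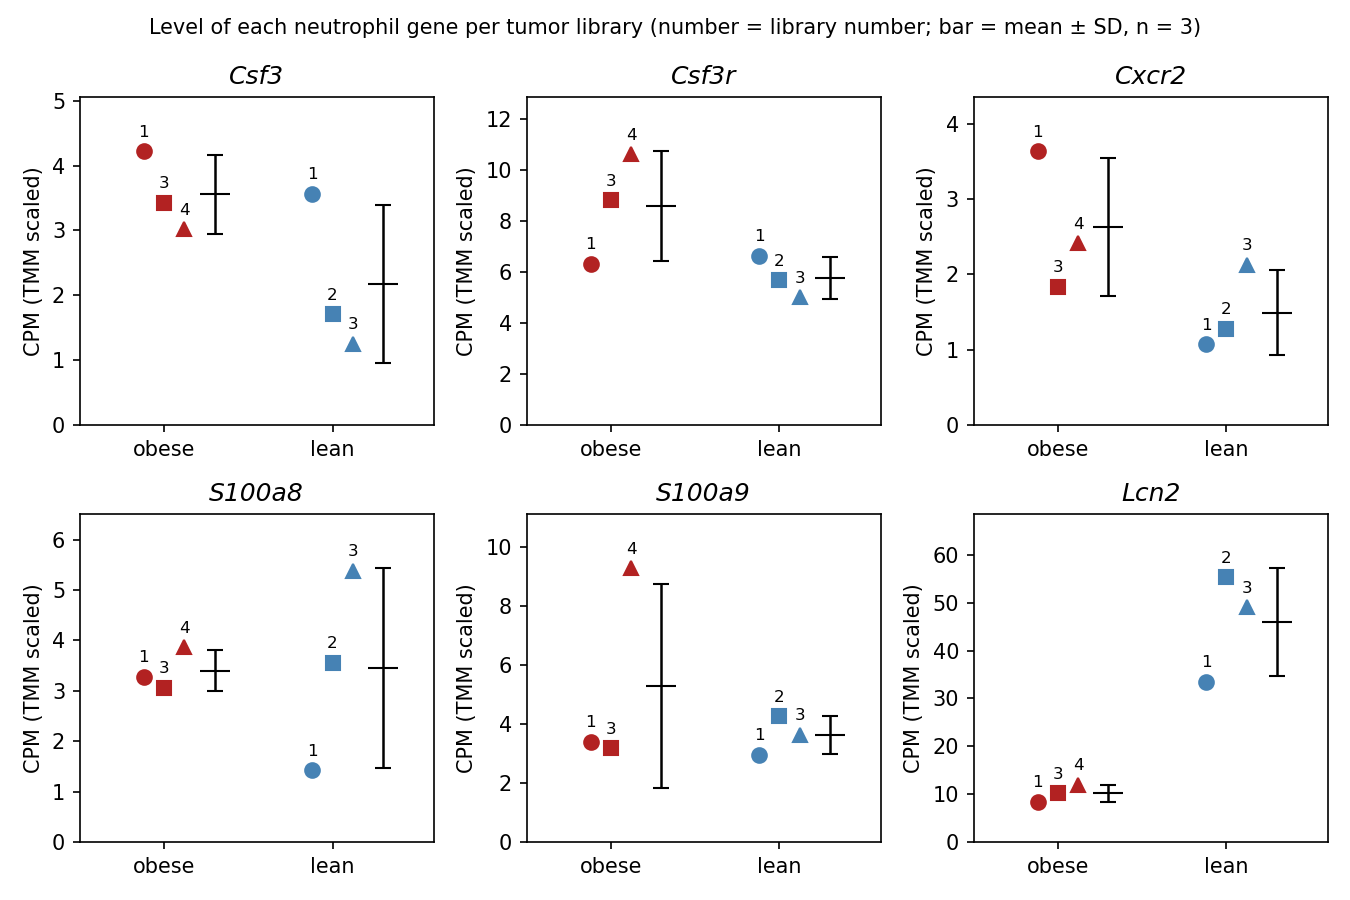
Level of each of the 6 neutrophil genes in each tumor library, in CPM after TMM scaling, obese on the left and lean on the right of each panel; numbers beside the points are library numbers, and bars show the mean ± SD of 3 libraries. The Lcn2 panel is the one in which the groups do not overlap, with obese libraries at 8.44 to 11.9 CPM and lean libraries at 33.5 to 55.4 CPM.

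Levels are given in CPM, the read count per gene scaled to the effective size of the library, with the counts themselves where they are few. Library totals were 7791756 to 8419274 counts in the obese and 7122533 to 8521244 in the lean group, so that 3 counts, the limit that a count of 0 allows, correspond to 0.352 to 0.426 CPM, for counting error only. Libraries separated by host on the first principal component of all genes tested (54.1% of the variance), and obese 3 stood apart from the other 5 on the second. No pair of libraries of the same group differed by as little as sampling noise: the squared difference of their counts, per gene, was 7.28 to 14.2 times what sampling gives.

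Lcn2 had 72, 83 and 99 counts in obese 1, 3 and 4, against 282, 390 and 392 counts in lean 1, 2 and 3. Its level was 10.2 ± 1.75 CPM in obese tumors and 46.0 ± 11.3 CPM in lean tumors (SD, n = 3 each). All 3 obese libraries lay below all 3 lean libraries, and the lowest lean library (33.5 CPM in lean 1) was well above the highest obese library (11.9 CPM in obese 4). The groups did not overlap for 1 of the 6 genes and for 40.3% of all genes tested (20.3% higher and 20.0% lower in every obese library). Lcn2 fell by 2.17 on the log2 scale (SE 0.21, 95% interval -2.64 to -1.70; edgeR adjusted p = 0.000801), which is 4.51-fold lower in obese hosts. Of the 14348 genes tested, 62 had a lower log2 fold change than Lcn2.

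With any 1 library left out, the log2 fold change of Lcn2 lay between -2.36 and -2.02, and each of these fits called it. The difference is thus larger than the spread between libraries and did not rest on 1 of them. In bulk tumor RNA, fewer cells of a type and less RNA per cell cannot be told apart. Which cells the Lcn2 reads came from was not tested.

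Relative to Csf3r, a gene largely confined to the granulocyte and monocyte lineage, the counts of Lcn2 gave a ratio of 1.33, 1.15 and 1.13 in obese 1, 3 and 4, against 5.04, 9.75 and 9.80 in lean 1, 2 and 3. This ratio does not depend on library scaling. It was chosen after the values were seen and is given without a test. Lcn2 was thus lower relative to Csf3r in every obese library than in any lean one, whereas the groups overlapped for Csf3r itself. This follows from the levels of both genes, as Lcn2 was lower and Csf3r was fitted higher in obese tumors. The ratio is therefore not a separate result and does not tell which cells changed.

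**Figure D2:**
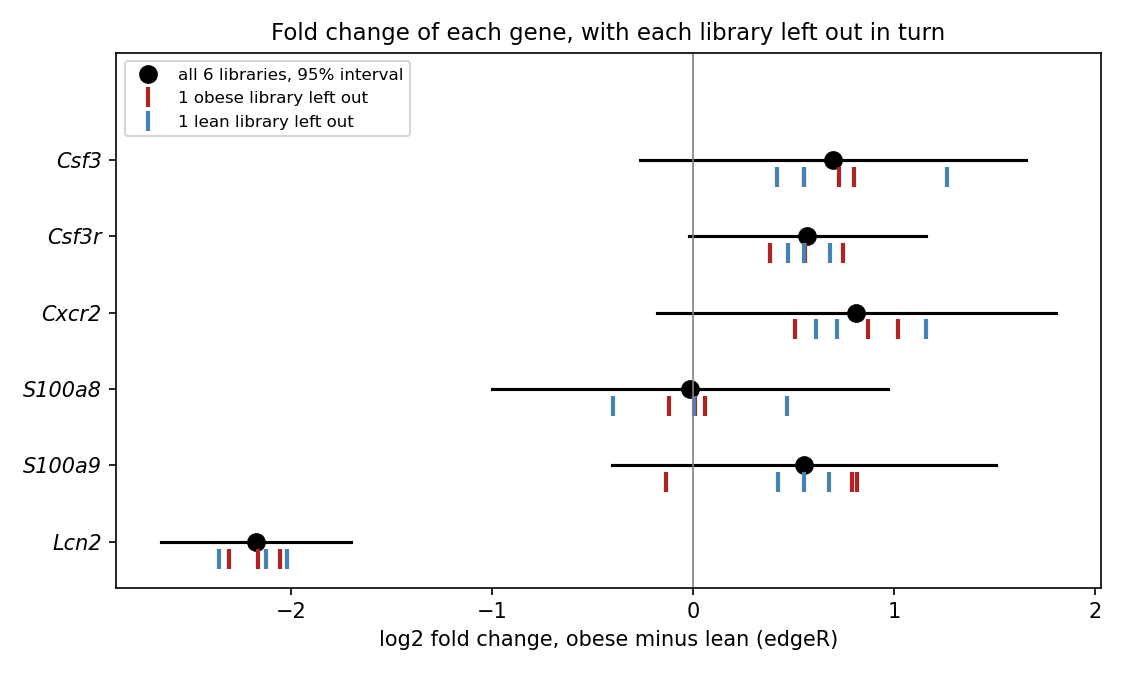
Fitted log2 fold change, obese minus lean, of each gene (black points, all 6 libraries) with its 95% interval (black lines), and the same value with 1 obese (red ticks) or 1 lean (blue ticks) library left out. The interval of Lcn2 (-2.64 to -1.70) lies below 0, those of the other 5 genes include 0, and ticks lie on each side of 0 for S100a8 and S100a9.

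Csf3 encodes G-CSF, the cytokine that releases neutrophils from the marrow. It had 36, 28 and 25 counts in obese 1, 3 and 4, against 30, 12 and 10 counts in lean 1, 2 and 3. Lean 1 lay among the obese libraries, and lean 2 and 3 lay below all of them. The level averaged 3.55 ± 0.612 CPM in obese tumors and 2.17 ± 1.22 CPM in lean tumors (SD, n = 3 each). The log2 fold change was 0.70 (SE 0.43, 95% interval -0.26 to 1.65; edgeR adjusted p = 0.275), so Csf3 did not pass the test. It was 1.26 without lean 1 (edgeR adjusted p = 0.0763) and 0.42 without lean 3.

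Csf3r, the receptor for G-CSF, had 54, 72 and 88 counts in obese 1, 3 and 4, against 56, 40 and 40 counts in lean 1, 2 and 3. The groups overlapped through 1 pair: obese 1, at 6.33 CPM, lay below lean 1, at 6.65 CPM. Mean levels were 8.59 ± 2.15 CPM in obese tumors and 5.78 ± 0.825 CPM in lean tumors (SD, n = 3 each). The log2 fold change of Csf3r was 0.57 (SE 0.27), with an unadjusted p = 0.0575 and an edgeR adjusted p = 0.151. Its 95% interval, as a fold of obese over lean, ran from 0.985 to 2.23, so neither equal levels nor a doubling lies outside it.

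Cxcr2, the chemokine receptor that steers mature neutrophils, was the scarcest of the 6 by counts. It had 31, 15 and 20 counts in obese 1, 3 and 4, against 9, 9 and 17 counts in lean 1, 2 and 3. The groups overlapped, since lean 3 (2.13 CPM) was above obese 3 (1.84 CPM). Cxcr2 averaged 2.63 ± 0.919 CPM in obese tumors and 1.49 ± 0.561 CPM in lean tumors (SD, n = 3 each). The log2 fold change was 0.81 (SE 0.45), which did not pass the test (edgeR adjusted p = 0.219), and the 95% interval of the fold was 0.883 to 3.49. Counting alone gives a single library an error of 18.0% to 33.3% for this gene.

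S100a8, a subunit of calprotectin, had 28, 25 and 32 counts in obese 1, 3 and 4, against 12, 25 and 43 counts in lean 1, 2 and 3. The obese libraries lay close together, inside the range of the lean ones. S100a8 averaged 3.40 ± 0.414 CPM in obese tumors and 3.45 ± 1.98 CPM in lean tumors (SD, n = 3 each). The log2 fold change was -0.016 (SE 0.45, edgeR adjusted p = 0.983). The 95% interval of the fold, 0.500 to 1.96, does not show that the hosts were alike. The sign of this value was not stable: the log2 fold change was -0.40 without lean 1 and 0.47 without lean 3, and it was 0.047 with total counts as the only scaling.

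S100a9, the partner subunit, had 29, 26 and 77 counts in obese 1, 3 and 4, against 25, 30 and 29 counts in lean 1, 2 and 3. Obese 4 stood alone, and the other 5 libraries lay between 2.97 and 4.26 CPM. The level averaged 5.29 ± 3.47 CPM in obese tumors and 3.62 ± 0.646 CPM in lean tumors (SD, n = 3 each). The log2 fold change was 0.55 (SE 0.43, edgeR adjusted p = 0.389), and the 95% interval of the fold was 0.756 to 2.84. Without obese 4 it was -0.13, so the positive value rested on that library.

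The proportion of the calprotectin subunits varied from library to library. The count of S100a8 over that of S100a9 was 0.966, 0.962 and 0.416 in obese 1, 3 and 4, against 0.480, 0.833 and 1.48 in lean 1, 2 and 3. Each group spanned a wide range. As a mean log2 ratio this was -0.46 ± 0.70 in obese and -0.25 ± 0.81 in lean tumors (SD, n = 3 each), a difference of -0.21 (two-sided exact permutation test, p = 0.8, adjusted p = 0.8 over 3 ratios). With 3 against 3 libraries this test cannot go below 0.1.

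Ligand and receptor were compared in the same way. The count of Csf3 over that of Csf3r was 0.667, 0.389 and 0.284 in obese 1, 3 and 4, against 0.536, 0.300 and 0.250 in lean 1, 2 and 3. The mean log2 ratio was -1.25 ± 0.62 in obese and -1.55 ± 0.57 in lean tumors (SD, n = 3 each; exact permutation p = 0.6, adjusted p = 0.8). The count of Cxcr2 over that of Csf3r was 0.574, 0.208 and 0.227 in the obese and 0.161, 0.225 and 0.425 in the lean libraries in the same order. Its mean log2 ratio was -1.73 ± 0.81 in obese and -2.01 ± 0.71 in lean tumors (SD, n = 3 each; exact permutation p = 0.6, adjusted p = 0.8). The groups overlapped for each of the 3 ratios, and each difference changed sign when a library was left out: S100a8 over S100a9 without obese 4 or lean 3, Csf3 over Csf3r without obese 1, and Cxcr2 over Csf3r without obese 1 or lean 1.

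**Figure D3:**
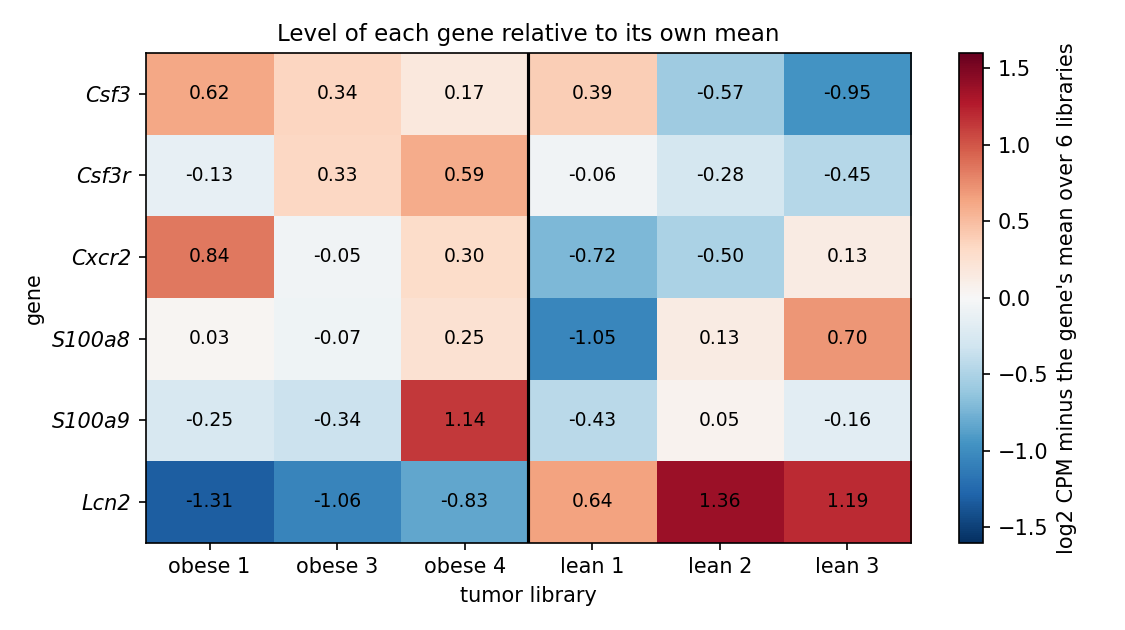
Log2 CPM of each gene minus its own mean over the 6 libraries, with obese libraries left of the black line and lean libraries right of it; red is above and blue below the gene's mean. Lcn2 is below its mean in all 3 obese libraries (-1.31 to -0.83) and above it in all 3 lean ones (0.64 to 1.36), S100a9 stands out in obese 4 (1.14), and S100a8 is lowest in lean 1 (-1.05).

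The libraries did not rank alike from gene to gene. Obese 1 had the highest Cxcr2 and Csf3 of the 6 libraries and the lowest Csf3r of its group. Obese 4 had the highest Csf3r and S100a9, and the highest S100a8 of its group. Lean 1 had the lowest S100a8, S100a9 and Cxcr2 of the 6 libraries, together with the highest Csf3 and Csf3r and the lowest Lcn2 of its group.

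The spread between libraries, set against counting error, also differed. A value of 1 means that the counts of a group vary as Poisson counting alone would on average, with only 3 libraries behind each value. For S100a8 it was 0.417 in the obese and 9.44 in the lean group, and for S100a9 it was 18.9 in the obese and 0.899 in the lean group. For Csf3r it was 4.56 in the obese and 0.965 in the lean group, for Csf3 0.887 and 5.53, and for Cxcr2 2.68 and 1.70. For Lcn2 it was 2.54 in the obese and 22.1 in the lean group. At a given relative spread this value grows with the count, and Lcn2 had 254 counts in the obese and 1064 in the lean group. The highest Lcn2 level was 1.415 times the lowest in the obese and 1.654 times in the lean group. The biological coefficient of variation was also estimated gene by gene, from dispersions that the quasi-likelihood test itself does not use. It was 34.0% for S100a8, 34.4% for S100a9, 31.0% for Csf3, 29.8% for Cxcr2, 20.9% for Csf3r and 18.0% for Lcn2, against 16.4% in common over all genes tested. That common value is not matched for level: the members other than Lcn2 lie at percentiles 7.95 to 26.9 by mean CPM. Genes of like level were not compared, so these values do not show an unusual spread of the members.

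The 4 members most tied to myeloid cells, S100a8, S100a9, Csf3r and Cxcr2, summed to 16.6, 16.9 and 26.2 CPM in obese 1, 3 and 4, against 12.1, 14.8 and 16.1 CPM in lean 1, 2 and 3. The sums did not overlap, but obese 1 and lean 3 were closer to each other than the counting error of either sum (1.40 CPM in obese 1 and 1.42 CPM in lean 3). Each of the 4 genes overlapped on its own, and 40.3% of all genes tested did not overlap. Lcn2, the called gene, is not in the sum. The means were 19.9 ± 5.44 CPM in obese and 14.3 ± 2.05 CPM in lean tumors (SD, n = 3 each). The 4 genes were grouped with their values known, so the sum is given without a test. The highest sum, that of obese 4, held 217 counts of the 4 genes together, 77 of them from S100a9, and the lowest, that of lean 1, held 102.

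Likeness between genes was measured as the root mean square difference of their centred log2 CPM over the 6 libraries, where 0 would be the same pattern. The closest pair was S100a9 and Csf3r, at 0.43, followed by Csf3 and Csf3r, at 0.46, and S100a8 and Cxcr2, at 0.50. S100a8 and S100a9 were 0.59 apart. Lcn2 was farthest from every other member, at 1.19 from S100a8 to 1.59 from Csf3. Among 14311 other genes averaging 1 CPM or more, the 2 closest to the mean pattern of S100a8 and S100a9 were ENSMUSG00000100768.1, at 0.14, and ENSMUSG00000100967.1, at 0.15, which carry no symbol in the sources used here. ENSMUSG00000100768.1 had 19, 17 and 25 counts in obese 1, 3 and 4, against 11, 17 and 21 counts in lean 1, 2 and 3, and did not pass the test (edgeR adjusted p = 0.746). These patterns rest on 6 libraries that share a group difference and on few counts, and are a description.

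**Figure D4:**
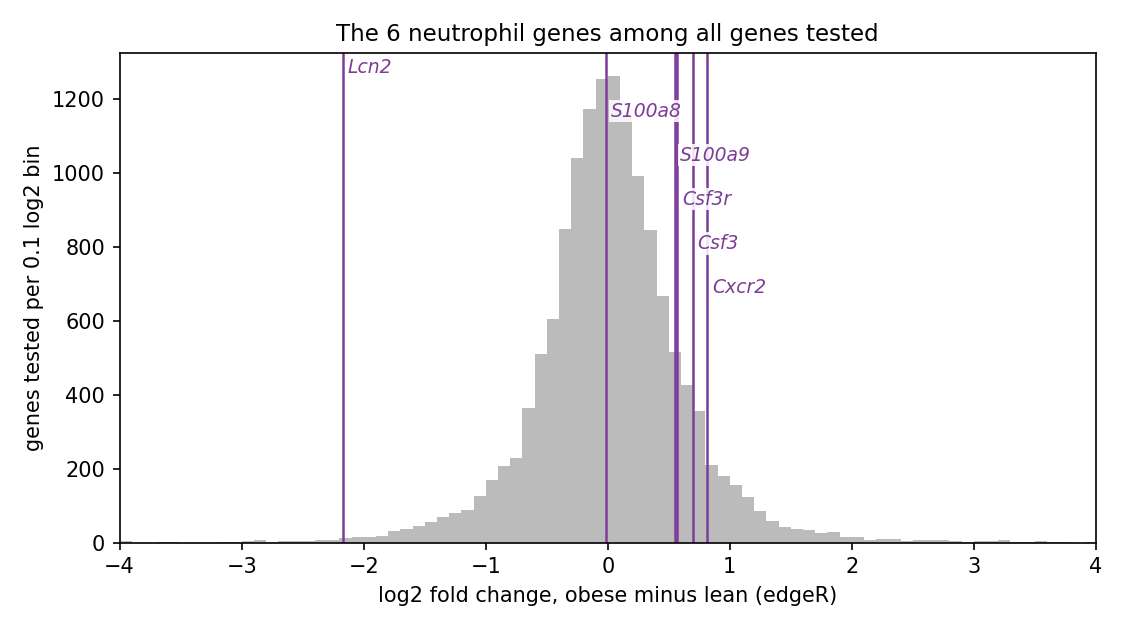
Histogram of the fitted log2 fold change, obese minus lean, of the 14348 genes tested (grey, bins of 0.1), with the 6 neutrophil genes as purple lines; genes beyond 4 in either direction are not drawn. Lcn2 (-2.17) lies in the lower tail, S100a8 (-0.016) at the center, and S100a9 (0.55), Csf3r (0.57), Csf3 (0.70) and Cxcr2 (0.81) on the upper shoulder.

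Set among all genes tested, the log2 fold change of Lcn2 was at the 0.439th percentile from the bottom. Those of Cxcr2, Csf3, Csf3r and S100a9 were at percentiles 92.6, 89.7, 85.9 and 85.4, and that of S100a8 at 47.5. The 5 genes that did not pass had few counts. By mean CPM, Cxcr2 was at percentile 7.95 of the genes tested, Csf3 at 12.7, S100a8 at 15.4, S100a9 at 19.2 and Csf3r at 26.9, whereas Lcn2 was at 55.3. Their SEs of 0.27 to 0.45 were above the median of 0.19 over all genes tested, and that of Lcn2 was 0.21.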

How the data were processed

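The measurements are raw read counts of 15646 versioned Ensembl IDs in 6 libraries, as deposited by the authors. Libraries were made from QIAzol-extracted total RNA with a ribosomal depletion kit, per the labels' protocols. The submitters' processing notes name GRCm38, CASAVA, STAR and Subread, without versions, settings or the handling of strand. No ID sums to under 11 counts, so an unstated filter on scarce genes had been applied. OB titles were taken as the obese and ND titles as the lean group.

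Members were found by Ensembl ID, with the symbols of the list. The list has no threshold on measured values, but its members, the other lists and the tests were chosen with earlier results of these data known. All 9 are named whatever their values, and the others by likeness. The RefSeq table (GRCm38.p6, 49997 genes) gave positions by symbol and carries 0 Ensembl IDs, so other neutrophil genes, leptin and markers of tumor, pancreas and other cell types, all listed by symbol, were not analysed here.

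The test was run in edgeR 4.0.16 (R 4.3.3): expression filter at its defaults (minimum count 10, minimum total 15; 14348 genes kept), TMM scaling, two-sided quasi-likelihood F test, no covariates, Benjamini-Hochberg adjustment over all genes tested, threshold 0.05. The SE is the log2 fold change over the square root of F, and the 95% interval uses its t quantile. Log2 CPM used a prior count of 2. The fit was tested on simulated data. Alternatives were other scalings and filters, DESeq2 1.42.0, limma-voom (limma 3.58.1), the replicate number as a block, and each library left out.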

Additional observations from a re-analysis of the deposited data

How the results depend on the processing

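One member, Lcn2, was called in the edgeR test and under all 13 alternatives, with log2 fold changes of -2.18 to -2.11 over scalings, filters, tools and the block, -2.36 to -2.02 with a library left out, and adjusted p-values of 1.1e-17 to 0.00703. The directions of Csf3, Csf3r and Cxcr2 were kept in all 13, uncalled, at 0.42 to 1.26, 0.38 to 0.75 and 0.51 to 1.16 with a library left out. S100a8 turned positive with total counts only (0.047), limma-voom (0.19) and the replicate block (0.086), and ranged from -0.40 to 0.47 with a library left out. S100a9 ranged from -0.13 to 0.82. The log2 ratio differences ranged from -0.61 to 0.20 (S100a8 to S100a9), -0.043 to 0.61 (Csf3 to Csf3r) and -0.19 to 0.66 (Cxcr2 to Csf3r). Whether the numbers 1 and 3, the ones in both groups, pair libraries cannot be told. Deviations correlated at 0.090 and 0.074 for these pairs, against -0.13 to 0.066 for pairs of unlike number. With the replicate block, obese 4 and lean 2 were each alone under their number. The group difference in that fit thus rested on obese 1 and 3 and lean 1 and 3. In it 1 member was called, and S100a9 was at 0.0022. The causes of the differences between groups were not tested. The 5 members other than Lcn2 had 9 to 88 counts per library.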
